A study of Mus musculus with 23 samples.

Results

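Tnf, Il6, Tnfaip3 and Nfkbie are 2 cytokine genes and 2 genes for inhibitors of NF-kappa-B, the transcription factor that drives both pairs. They are 4 of the 754 genes on a NanoString nCounter panel of mouse myeloid genes, an assay in which coloured barcoded probes on RNA are counted without amplification, and were taken from it by name. RNA came from the left lungs of 23 mice, 1 lung per mouse, after lavage of the airspaces. The mice had been given 14 instillations, either of an organic dust extract or of PBS (saline). Fat-1 mice carry a nematode desaturase that makes omega-3 from omega-6 fatty acids, and the others were wild type (WT). The sources used here give no promoter for the transgene, no strain background and no age. By extract code there were 3 Fat-1 female, 3 Fat-1 male, 4 WT female and 3 WT male dust lungs, and 2 Fat-1 female, 3 Fat-1 male, 2 WT female and 3 WT male saline lungs. RNA was extracted on a pair of days: day 2 held 5 dust and 6 saline lungs, and day 1 held 8 dust and 4 saline lungs.

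NF-kappa-B dimers are held in the cytoplasm by inhibitor proteins of the IkB family. Signals from Toll-like receptors, the interleukin 1 receptor and the TNF receptors activate the IkB kinase, the inhibitors are destroyed, and the dimers enter the nucleus. Their targets include the cytokines TNF and interleukin 6, which macrophages and other lung cells release, and also the genes that end the signal. Tnfaip3 encodes A20, a ubiquitin-editing enzyme that takes apart the signalling complexes upstream of the kinase. Nfkbie encodes IkB-epsilon, an inhibitor that is made anew after activation and binds RelA and c-Rel.

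The promoters are shown because the 4 genes share a transcription factor. Each line gives the 250 bases before the start of transcription, 5′ to 3′ on the gene's strand, from RefSeq (GRCm38.p6); all 4 genes matched by symbol, and for Tnfaip3, which has 2 windows there, the one at the gene's start is given. Capitals mark matches, on either strand, to the kappa-B consensus of NF-kappa-B. The windows are chr17:35202008-35202257 (minus strand) for Tnf, chr5:30012864-30013113 (plus) for Il6, chr10:19015411-19015660 (minus) for Tnfaip3 and chr17:45555450-45555699 (plus) for Nfkbie.
Tnf: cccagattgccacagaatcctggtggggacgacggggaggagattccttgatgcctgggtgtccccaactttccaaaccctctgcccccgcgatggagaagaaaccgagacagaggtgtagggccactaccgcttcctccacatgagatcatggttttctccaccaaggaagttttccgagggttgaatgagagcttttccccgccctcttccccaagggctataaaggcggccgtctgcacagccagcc
Il6: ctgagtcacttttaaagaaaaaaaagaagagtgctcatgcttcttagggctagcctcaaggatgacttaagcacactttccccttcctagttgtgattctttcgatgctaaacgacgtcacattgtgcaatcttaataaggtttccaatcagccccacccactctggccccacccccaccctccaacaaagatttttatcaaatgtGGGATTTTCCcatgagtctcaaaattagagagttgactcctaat
Tnfaip3: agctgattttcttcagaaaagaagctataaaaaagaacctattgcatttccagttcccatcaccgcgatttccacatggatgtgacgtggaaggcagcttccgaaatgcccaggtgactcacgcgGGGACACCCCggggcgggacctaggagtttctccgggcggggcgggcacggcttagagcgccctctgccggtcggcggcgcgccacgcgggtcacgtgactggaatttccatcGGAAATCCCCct
Nfkbie: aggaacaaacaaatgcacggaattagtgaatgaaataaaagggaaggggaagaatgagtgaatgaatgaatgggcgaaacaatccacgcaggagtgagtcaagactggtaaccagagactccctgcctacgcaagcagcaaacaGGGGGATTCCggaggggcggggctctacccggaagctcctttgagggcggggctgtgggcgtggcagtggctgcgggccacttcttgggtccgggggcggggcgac
Il6 held the match GGGATTTTCC, whose first base lay 44 bases before the start. Nfkbie held GGGGGATTCC at 106 bases. Tnfaip3 held GGGACACCCC at 125 bases and, on the opposite strand, GGGGATTTCC within 12 bases of the start, which reads GGAAATCCCC on the line above. The Tnf window held no match to these letters and held the TATA box letters TATAAA, 29 bases before the start; Tnfaip3 held TATAAA too, 225 bases before it. Of all 32851 RefSeq windows of this length 3.9% held a kappa-B match, and of the 668 windows of tested genes 8.98% did; for TATAAA on the gene's strand the shares were 7.59% and 11.4%. A match is a match of letters and no measure of binding.

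Values are deposited normalized counts, each lung's counts times its own scale factor, with a floor: a gene reads exactly 20 where its count was under 20 and, in the 5 lungs with a factor under 1, also where its scaled value was. A value at 20 therefore hides anything up to a bound that differs between lungs, from 20 to 84.26. Each lung had between 110453 and 812429 counts in genes above the floor. Changes are log2 fold changes of value + 1 from limma, with p-values adjusted by Benjamini-Hochberg over the 711 genes above the floor in at least 1 lung. A gene was called at an adjusted p under 0.05. Several lungs stood apart. Fat-1 female dust lung 2 of day 1 had the lowest summed endothelial markers of all lungs (2026). It also had the highest summed macrophage and monocyte markers (13828) and T cell markers (482). Its neutrophil markers summed to 29698, where the highest dust lung had 42024. WT female saline lung 1 of day 2 had a positive-control signal of 1904 against at most 835.9 elsewhere. Fat-1 male dust lung 1 of day 2 and WT male saline lung 1 of day 2 carried a saturation message, with binding densities of 3.05 and 3.12 against at most 1.32 elsewhere. In 4 lungs other labels gave another group than the extract code, which was followed here. In 3 of them the title and the characteristics both gave WT where the code gives Fat-1. These were Fat-1 male dust lung 1 of day 1, Fat-1 female saline lung 1 of day 1 and Fat-1 male saline lung 2 of day 2. Both labels also gave the last of these as female. The titles disagreed on exposure in 1 lung, WT male saline lung 2 of day 2. It is titled as a WT female dust lung and has saline among its characteristics.

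Among all lungs the 4 genes were higher in dust than in saline, and 3 of them stayed so when the floor was allowed for. In limma's test 4 of 4 were called higher, where 43.3% of the 711 tested genes were. Tnf, Tnfaip3 and Nfkbie were called higher also with every floored value at its upper bound; Il6 was not. The tissue is whole lung, so more cells of a type and more RNA per cell cannot be told apart. Summed markers of 2 myeloid cell types moved with dust. The 11 neutrophil markers summed to 1892 to 42024 normalized counts in dust and 1722 to 3679 in saline. S100a8 and S100a9 had the largest dust means of these, 5990 and 7772. Elane and Cxcr1 were at the floor in every lung, and Ly6g and Mpo in every saline lung and in 9 and 12 of the 13 dust lungs. The 10 macrophage and monocyte markers summed to 4120 to 13828 in dust and 2627 to 3873 in saline. Of the tested markers, 7 of 9 and 10 of 10 were called higher. The 4 endothelial markers, all called lower, summed to 2026 to 8257 in dust and 7844 to 10225 in saline. Other sums moved too. By median, fibroblast markers summed to 7703 in dust and 3809 in saline, and T cell markers to 159 and 72.8. Epithelial medians were 10603 and 8919, while B cell (327 and 365) and mast cell medians (893 and 1222) were lower in dust. The part of these cell types in the results below was not tested.

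**Figure D1:**
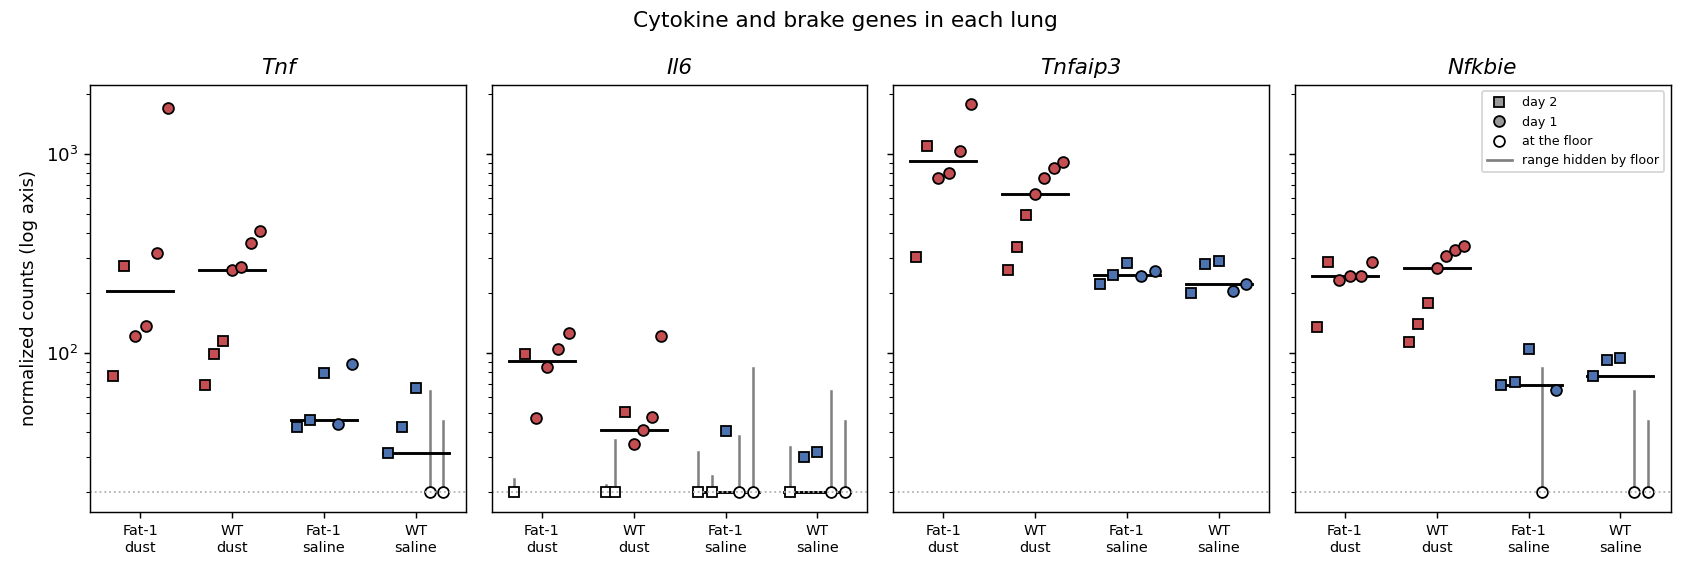
Normalized counts (log axis) of the 4 genes in each of the 23 lungs, in Fat-1 dust, WT dust, Fat-1 saline and WT saline lungs; squares are day 2, circles day 1, bars the group medians, open symbols values at the floor of 20 and grey lines the range such a value hides. By extract code, Nfkbie separated dust from saline lungs completely, Tnfaip3 in 12 of 13 dust lungs, and Il6 was at the floor in 3 dust and 7 saline lungs.

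Tnf encodes the cytokine that binds the TNF receptors and sets off NF-kappa-B in neighbouring cells. In Fat-1 dust lungs its lowest, median and highest values were 76.7, 205.2 and 1695 normalized counts. In WT dust lungs they were 69.4, 262.4 and 411.2. Saline lungs had 42.7, 44.3, 46.2, 79.5 and 88.5 in Fat-1 mice, and 31.4, 42.5, 66.6 and 2 values at the floor in WT mice. Of 13 dust lungs 11 exceeded the highest saline lung, and the 2 that did not were Fat-1 female lung 1 of day 2 and WT female lung 2 of day 2. The log2 fold change was 2.28 (SE 0.44, 95% CI 1.36 to 3.21, adjusted p = 3.98e-04), and it was 1.98 with floored values at their upper bound.

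A single lung carried much of the Fat-1 mean. Fat-1 female dust lung 2 of day 1 had 1695 normalized counts of Tnf, while 76.7 to 317.4 were counted in the remaining 5 lungs of its group. With it, Fat-1 dust lungs averaged 437 ± 623 (SD, n = 6), and without it 185 ± 104 (SD, n = 5), against 60.2 ± 22.0 in Fat-1 saline lungs (SD, n = 5). Leaving out that lung gave a log2 fold change in Fat-1 of 1.47, still called (limma adjusted p = 0.0451), against 2.04 with it, and over both genotypes of 2.00. The call in Fat-1 was lost without Fat-1 female saline lung 1 of day 1 (1.83, adjusted p = 0.0807), without the lungs with a saturation message (1.86, adjusted p = 0.0579) and with the groups of the characteristics (1.83, adjusted p = 0.0971). The same lung was high in Tnfaip3 at 1778, yet near the middle of the Fat-1 dust lungs in Nfkbie at 243.5 and low in Il6 at 47.3, the value of 20 counts in that lung.

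Il6 encodes interleukin 6, which signals through its receptor and gp130 to STAT3. In Fat-1 dust lungs it was at 47.3, 84.8, 98.9, 104.6 and 126 normalized counts and at the floor in 1 lung. In WT dust lungs it was at 35.1, 41.2, 47.7, 50.4 and 122.4 and at the floor in 2 lungs. Of 10 saline lungs 7 were at the floor, and the others had 40.6 in Fat-1 and 30.0 and 32.0 in WT. As deposited, 9 of 13 dust lungs exceeded every saline lung. The saline floors hid up to 84.26, and 5 of 13 dust lungs lay above that bound.

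The log2 fold change of Il6 was 1.19 (SE 0.26, adjusted p = 0.00119), and this call rested on the floor. With floored values at their upper bound it was 0.52 (limma adjusted p = 0.118), and with a common floor of 84.26 in every lung it was 0.14 (adjusted p = 0.123). On day 1, where 8 of 8 dust lungs and 0 of 4 saline lungs were above the floor, the change was 1.71 as deposited (adjusted p = 2.99e-04) and 0.28 at the upper bound (adjusted p = 0.447). A rise in Il6 was thus not separable from the deposited floor in these lungs.

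Tnfaip3, the gene for A20, was above the floor in every lung, which none of the other 3 was. In Fat-1 dust lungs it had 303 to 1778 normalized counts with a median of 918.8, and in WT dust lungs 263 to 907 with a median of 632.5. Fat-1 saline lungs had 223.5, 244.4, 247.9, 258.1 and 284.6, and WT saline lungs had 200.4, 204.3, 223.6, 280.6 and 292.0. Saline lungs were tightly grouped, at 246 ± 33.0 (SD, n = 10), whereas dust lungs were at 771 ± 405 (SD, n = 13). WT female dust lung 2 of day 2, at 263.1, was the 1 dust lung below the highest saline lung. The log2 fold change was 1.495 (SE 0.26, 95% CI 0.96 to 2.03, limma adjusted p = 1.52e-04).

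Nfkbie, the gene for IkB-epsilon, separated the exposures without overlap. In Fat-1 dust lungs it had 134.9, 233.4, 243.5, 244.2, 286.0 and 286.7 normalized counts. In WT dust lungs the lowest, median and highest were 113.3, 268.6 and 344.7. Fat-1 saline lungs had 65.5, 69.1, 71.7, 104.9 and 1 value at the floor, and WT saline lungs had 76.4, 92.1, 95 and 2 at the floor. Every dust lung lay above every saline lung, which held for 3.52% of the tested genes, and the floor bounds of 45.4, 64.8 and 84.3 in the floored lungs were also below the lowest dust lung. This separation holds by extract code. WT male saline lung 2 of day 2, at 76.4, is titled as a dust lung. Taken as one, it would lie below the saline lungs at 92.1, 95 and 104.9. The log2 fold change was 2.05 (SE 0.33, 95% CI 1.35 to 2.75, limma adjusted p = 9.29e-05), and 1.58 with floored values at their upper bound.

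The panel's genes shifted together, with a median log2 fold change of 0.26 over the 711 genes. After each lung was centred on its own median, the changes were 1.77 for Tnf, 0.67 for Il6, 0.98 for Tnfaip3 and 1.53 for Nfkbie, all called by limma (largest adjusted p = 0.0147, for Il6), where 23.9% of genes were called higher and 42.3% lower. On the housekeeping scale they were 2.15, 1.05, 1.36 and 1.91, where 35.9% of genes were called higher. As deposited 308 genes were called higher and 71 lower, after median centring 170 and 301, and on the housekeeping scale 255 and 115.

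**Figure D2:**
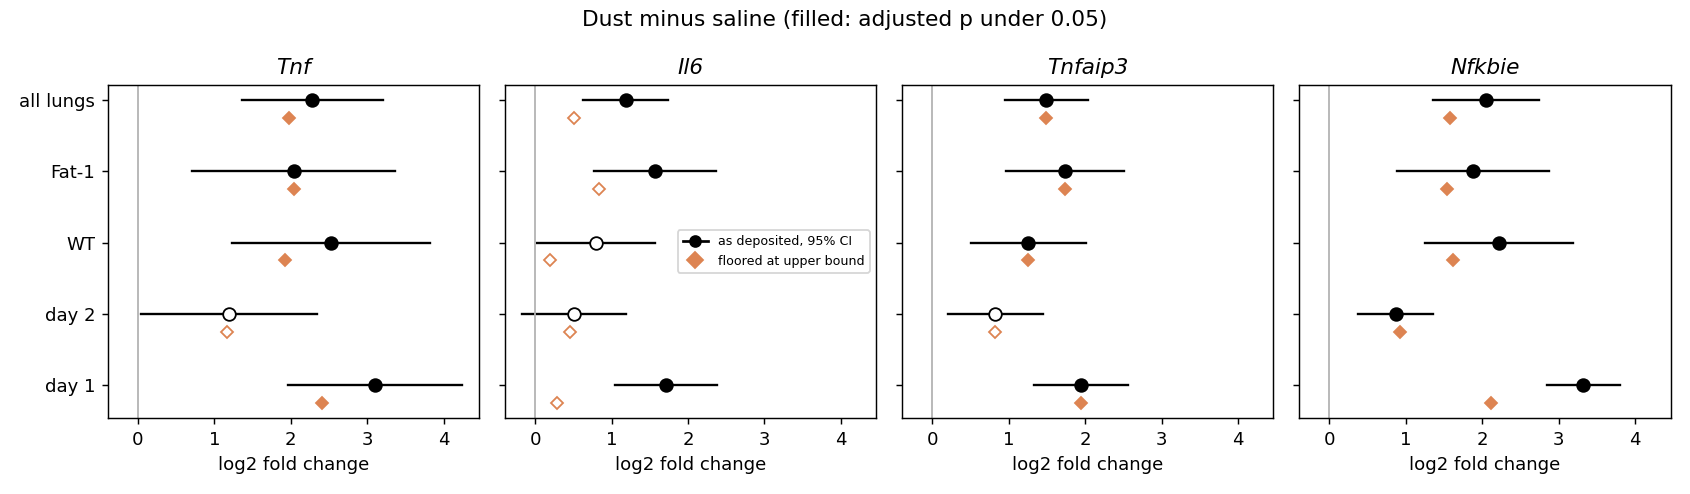
Log2 fold change, dust minus saline, of the 4 genes over all lungs, in Fat-1, in WT, on day 2 and on day 1; circles with bars are deposited values with 95% confidence intervals, diamonds the same with floored values at their upper bound, and filled symbols passed an adjusted p of 0.05. Il6 has no filled diamond, Tnfaip3 diamonds lie level with its circles, and day 2 effects are the smaller of each pair of days except for Il6 at the upper bound.

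The brakes were next set against the cytokines within each lung, as log2 differences between genes. The level of such a difference depends on the probes, so only its change between groups can be read. Tnfaip3 minus Tnf was 1.68 ± 0.68 in dust lungs (SD, n = 13) and 2.47 ± 0.65 in saline lungs (SD, n = 10), so that Tnf gained on Tnfaip3 by less than 1 log2 unit in the means, with overlapping ranges. In WT mice the difference was 1.56 ± 0.41 in dust and 2.83 ± 0.64 in saline, and in Fat-1 mice 1.82 ± 0.93 and 2.11 ± 0.46. Both saline lungs with Tnf at the floor were WT, at 3.42 and 3.29, against 2.06, 2.21 and 3.18 in the other WT saline lungs. The Fat-1 dust mean includes Fat-1 female dust lung 2 of day 1, at 0.07. The genotypes are therefore not compared on this measure. Nfkbie minus Tnf was 0.10 ± 0.97 in dust and 0.30 ± 0.95 in saline. Tnf was at the floor in 2 saline lungs and Nfkbie in 3, and these differences carry no test. Against Il6 the means as deposited moved the other way. Nfkbie minus Il6 was 2.11 ± 0.73 in dust and 1.16 ± 0.89 in saline, and Tnfaip3 minus Il6 was 3.68 ± 0.74 in dust and 3.32 ± 0.33 in saline. Il6 was at the floor in 3 dust and 7 saline lungs. In the 3 saline lungs with Nfkbie at the floor, Il6 was there too, which sets their difference to 0. The direction against Il6 can therefore not be told apart from the floor.

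Across the 13 dust lungs the brakes and Tnf were high in the same lungs. Tnf and Tnfaip3 had Pearson's r = 0.87 (permutation adjusted p = 6.60e-04 over 6 pairs, raw p = 1.10e-04) and Spearman's rho = 0.86 (adjusted p = 0.003). Tnf and Nfkbie had r = 0.68 (permutation adjusted p = 0.0184) and rho = 0.76, and Tnfaip3 and Nfkbie had r = 0.83 (permutation adjusted p = 0.00207) and rho = 0.69. Il6 had r = 0.66 with Tnfaip3 and r = 0.66 with Nfkbie (permutation adjusted p = 0.0185 each), but rho = 0.49 and 0.39, with adjusted p = 0.137 and 0.191. Tnf and Il6 were not called, at r = 0.35 and rho = 0.44 (permutation adjusted p = 0.249 and 0.16). The calls of Tnf with Nfkbie and of Il6 with either brake were lost on leaving out WT female dust lung 2 of day 2 (r = 0.61, 0.57 and 0.57), and likewise Fat-1 female dust lung 1 of day 2 (r = 0.63, 0.58 and 0.59). Without the 2 lungs farthest from the median of the first gene, r was 0.78, 0.91, 0.64, 0.73, 0.69 and 0.43 in the order given.

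Within day 1 none of these relations was called, and 4 of the 6 had the opposite sign. Over the 8 dust lungs of day 1 the exact permutation test gave r = 0.82 for Tnf and Tnfaip3 (raw p = 0.0337, adjusted p = 0.202), and 0.27 in 7 lungs without the lung highest in Tnf. The other pairs were at 0.09 for Tnf and Nfkbie and at −0.18, −0.21, −0.43 and −0.43 for Tnfaip3 with Nfkbie, Il6 with Tnfaip3, Il6 with Nfkbie and Tnf with Il6. Several of these values hung on the lung highest in Tnf. Without it they were 0.825, 0.36, 0.08, −0.60 and −0.37 in the same order, and none was called. The smallest p was that of Tnf and Nfkbie (exact permutation raw p = 0.0244, adjusted p = 0.146). Leaving out that lung within day 1 was added after seeing the data. Day 2 had 5 dust lungs, too few for a correlation. In deviations from the mean of each lung's genotype, sex and day (10 lungs), Tnf and Tnfaip3 had r = 0.84 (exact permutation within groups, raw p = 0.25), and the other 5 pairs lay between −0.69 and 0.20. These lungs form 5 groups of 2, so the smallest p that permuting within groups allows is 0.0625 and no call could be made.

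**Figure D3:**
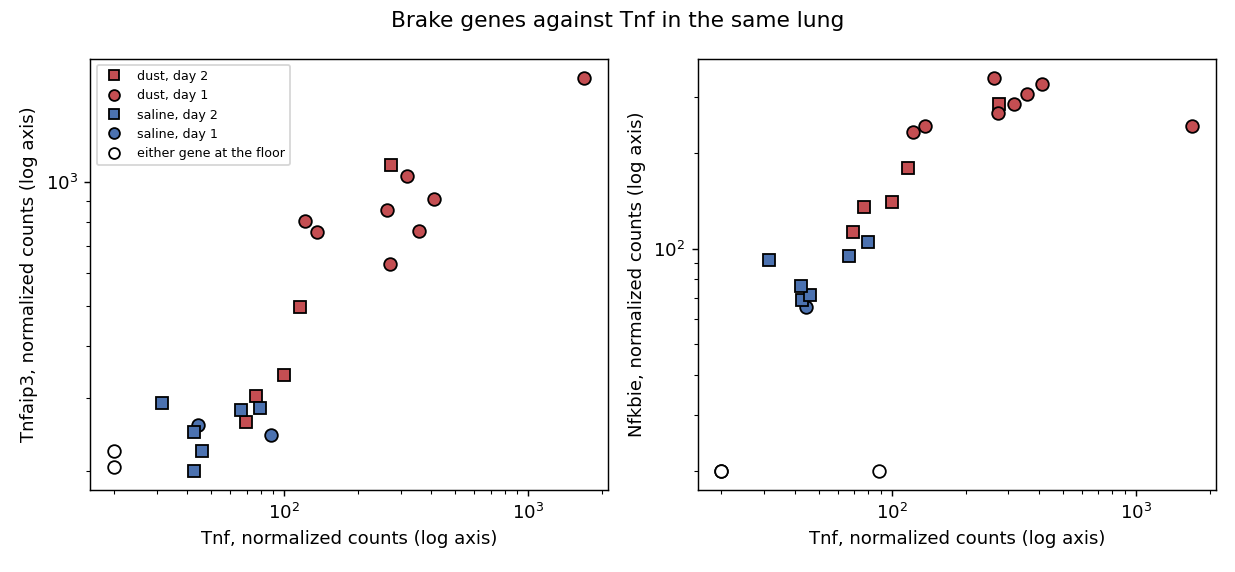
Tnfaip3 and Nfkbie against Tnf in the same lung (normalized counts, log axes); red is dust, blue saline, squares day 2, circles day 1, and open symbols have either gene at the floor. Dust lungs of day 1 lie at the upper right and 4 of 5 dust lungs of day 2 at lower values of both genes; the circle farthest right is the Fat-1 lung with 1695 counts of Tnf.

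As deposited, the estimated dust response of each of the 4 genes was smaller on day 2 than on day 1. The difference was called for Nfkbie alone (limma adjusted p = 7.92e-04). It was not called with floored values at their upper bound, where that of Il6 turned sign, nor with the cartridge in the day's place, as given below. On day 2 the log2 fold changes were 1.19 for Tnf, 0.51 for Il6, 0.83 for Tnfaip3 and 0.87 for Nfkbie, and Nfkbie was called (limma adjusted p = 0.0283), where 9.28% of genes were called higher. Without the 2 lungs with a saturation message Nfkbie on day 2 was at 0.63 (adjusted p = 0.145), and its call was lost on leaving out any of 6 single lungs (0.58 to 0.89). On day 1 they were 3.11, 1.71, 1.95 and 3.32, all 4 called, where 41.5% of genes were; the Il6 value has the limit given above. By extract code, every dust lung exceeded every saline lung in Nfkbie on day 2, as in 5.77% of genes. On day 1 this held for all 4 genes as deposited, as in 26.9% of genes. For Il6 all 4 day 1 saline lungs were at the floor, and with them at their upper bounds 4 of 8 dust lungs lay above every saline lung. With the day as a block, dust minus saline was 2.16, 1.12, 1.401 and 2.12 over all lungs. In a fit of day 2 lungs alone it was 1.13, 0.53, 0.86 and 0.96, and none of the 4 was called (limma adjusted p = 0.056, 0.217, 0.0684 and 0.056), in a fit that called 0.426% of genes.

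Among dust lungs the day 2 values were lower. Tnf was at 69.4, 76.7, 99.7, 115.7 and 273.8 on day 2, against 122 to 1695 with a median of 294.2 on day 1. Tnfaip3 was at 263.1, 303.4, 340.6, 496.5 and 1097 on day 2, against 633 to 1778 on day 1, and Nfkbie was at 113.3 to 286.7 against 233.4 to 344.7. For each of these 3 genes, 4 of 5 day 2 lungs lay below every day 1 lung. The remaining one was Fat-1 male lung 1 of day 2, which carried the saturation message. The share of all tested genes with this pattern was not counted, so it is not read as particular to these 3. Day 2 minus day 1 was −0.97 for Tnfaip3 and −0.76 for Nfkbie (limma adjusted p = 0.0433 each, where 6.33% of genes were called lower), and −1.42 for Tnf and −0.85 for Il6 (adjusted p = 0.0807 and 0.0772). Without the 2 lungs with a saturation message, Tnf was at −2.13 (adjusted p = 0.00259) and Il6 at −1.07 (adjusted p = 0.0194), where 33.5% of genes were called lower. The calls of Tnfaip3 and Nfkbie are near the threshold: leaving out single lungs ended them in 18 and 14 of 23 cases. The neutrophil markers of dust lungs summed to a median of 4075 on day 2 and 22402 on day 1, and the macrophage and monocyte markers to 7413 and 11753; their part in the difference was not tested. The days and the 2 cartridges nearly coincide, since 2 lungs from each day were run on the cartridge that held most lungs of the other. With the cartridge in the day's place the differences were −0.63 for Tnf, −0.28 for Il6, −0.36 for Tnfaip3 and −0.15 for Nfkbie (adjusted p = 1 for each).

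Nfkbie had the smallest p of all 711 genes for the difference in dust response between days. Its response was lower on day 2 by 2.46 on the log2 scale (SE 0.32, limma adjusted p = 7.92e-04), where 0.844% of genes, 6 in all, were called lower: Nfkbie with Cxcl10, Cxcl2, Dusp2, Fcer2a and Havcr2, named after their values were seen. Each of the 6 was at the floor in 3 or 4 of the 4 day 1 saline lungs. Saline lungs had 69.1 to 104.9 of Nfkbie on day 2, against 65.5 and 3 floored values on day 1. This gave Nfkbie a day 2 minus day 1 change in saline of 1.69 (adjusted p = 0.00225), the 1 gene called, or 0.141% of genes. As deposited the days did not overlap, as in 0.563% of genes. The floored day 1 lungs could hold up to 45.4, 64.8 and 84.3. The last of these bounds lies above the day 2 lungs at 69.1, 71.7 and 76.4, so the separation rests on the floor. At the upper bound of the floored values the saline change was 0.44 (adjusted p = 0.323) and the difference in response −1.20 (adjusted p = 0.198). With the cartridge in the day's place the difference was −1.62 (adjusted p = 0.993), and without WT male saline lung 1 of day 1 the saline change was 1.56 (adjusted p = 0.0542). The differences in response of Tnf, Il6 and Tnfaip3 were −1.92, −1.21 and −1.12 (adjusted p = 0.185, 0.180 and 0.180); without the lungs with a saturation message they were −2.65, −1.37 and −1.47, all called, as were 20.3% of genes, lower, under that setting. At the upper bound of floored values the Il6 difference was 0.17.

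In Fat-1 lungs all 4 genes were called higher in dust, where 32.2% of genes were, with log2 fold changes of 2.04 for Tnf, 1.57 for Il6, 1.74 for Tnfaip3 and 1.88 for Nfkbie (limma adjusted p = 0.0192, 0.00611, 0.00283 and 0.0073). Without the 4 lungs whose labels disagree the values were 1.83, 1.55, 1.73 and 1.88 and all 4 calls were lost (adjusted p = 0.157, 0.0682, 0.05003 and 0.0682), where 9.7% of genes were called higher. The call of Tnf was lost also with groups from the titles (1.83, adjusted p = 0.126), as was that of Nfkbie (1.88, adjusted p = 0.0548), and with the replicate block (1.62, adjusted p = 0.088) and the common floor (1.51, adjusted p = 0.0677). In WT lungs Tnf, Tnfaip3 and Nfkbie were called at 2.53, 1.26 and 2.22, where 30.7% of genes were called higher, and Il6 was at 0.80 (adjusted p = 0.0996). At the upper bound of floored values Il6 in Fat-1 was at 0.83 (adjusted p = 0.096). Without WT female saline lung 1 of day 1, Tnf and Tnfaip3 in WT were at 2.11 and 1.17 and not called (adjusted p = 0.0529 and 0.067). The difference between the genotypes in dust response was −0.49 for Tnf (95% CI −2.35 to 1.37), 0.77 for Il6 (−0.34 to 1.88), 0.48 for Tnfaip3 (−0.60 to 1.56) and −0.34 for Nfkbie (−1.73 to 1.05), with an adjusted p of 0.999 for each. These intervals leave room for differences of more than 1 log2 unit in either genotype for Tnf and Nfkbie.

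Within dust lungs, Fat-1 minus WT was 0.29 for Tnf, 0.68 for Il6, 0.57 for Tnfaip3 and 0.03 for Nfkbie (limma adjusted p = 0.980, 0.979, 0.979 and 0.996). By medians Il6 and Tnfaip3 ranked Fat-1 dust first and WT dust second, and Tnf and Nfkbie the reverse, and in each gene the 2 dust groups overlapped. Tnf was at −0.28 once Fat-1 female dust lung 2 of day 1 was left out. Within saline lungs Fat-1 minus WT was 0.78, −0.09, 0.09 and 0.37 in the same gene order (limma adjusted p = 1 for each). In limma's test 0 of 711 genes were called for the genotype difference in response, for Fat-1 minus WT in dust or for Fat-1 minus WT in saline, and 21, 22 and 10 genes had an unadjusted p under 0.05. The dust response of males minus that of females was 0.05 for Tnf, 1.02 for Il6, 0.49 for Tnfaip3 and 0.63 for Nfkbie (limma adjusted p = 0.998 for each), with 0 of 711 genes called and 14 at an unadjusted p under 0.05.

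The rest of the pathway was read from 6 gene lists. The background to each list's figures is 43.3% of genes called higher and a median log2 fold change of 0.26; after median centring it is 23.9% higher and 42.3% lower, and at the upper bound of floored values 38.5% higher. Of 21 listed inhibitors and feedback genes 7 were on the panel. Of the 7, 6 were called higher, Tnfaip3 and Nfkbie among them, and 0 lower (median 0.74). Socs3, which blocks signalling from gp130, was at 301 ± 118 normalized counts in dust and 98.7 ± 36.6 in saline, and rose by 1.61 (limma adjusted p = 3.73e-04). Nfkbia, the gene for IkB-alpha, rose by 0.72 (643.6 ± 188 in dust, 389.7 ± 86.3 in saline) and Nfkbiz, the gene for the nuclear protein IkB-zeta, by 0.66, while Socs1, a Janus kinase inhibitor, rose by 0.74, a call lost without any of 6 single lungs (0.65 to 0.72) or on the housekeeping scale (0.61, adjusted p = 0.0699). The changes of Tnfaip3 and Nfkbie exceeded those of Nfkbia and Nfkbiz in size; the differences between genes were not tested. After median centring 3 of the 7 were higher and 1 lower, and Nfkbia, Nfkbiz and Socs1 were at 0.21, 0.14 and 0.23 and not called.

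Of 11 NF-kappa-B subunit and kinase genes 3 were on the panel. Ikbke, an IkB-kinase-related kinase, was at 233.6 ± 175 in dust and 50.1 ± 16.9 in saline (a change of 1.93 on the log2 scale, limma adjusted p = 3.68e-04). Nfkb1, the gene for p105 and p50, rose by 0.54 (0.03 after median centring, adjusted p = 0.869). Map3k14, the kinase of the alternative pathway, was at 0.21 (adjusted p = 0.19; −0.30 after median centring).

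Of 10 tested genes of the TNF receptor arm 6 were called higher and 0 lower (median 0.36), Tnf among them. Tnfrsf1b, the second TNF receptor, was at 852 ± 824 in dust and 143 ± 23.4 in saline (up 2.19 on the log2 scale, limma adjusted p = 1.61e-04). Birc3, a ubiquitin ligase of the receptor complex, rose by 0.81, Ltb, the gene for lymphotoxin beta, by 1.10 (0.88 with groups from the titles, adjusted p = 0.0812), and the adaptor Traf2 by 0.37. After median centring 4 of the 10 were higher and 3 lower, with Traf2 at −0.14 and not called.

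Of 7 tested genes of the IL-6 arm 6 were called higher, Il6 and Socs3 among them, and 0 lower. Socs3 is in the list of feedback genes too. The median of 1.19 was the value of Il6 itself. It was 0.52 with floored values at their upper bound, 0.31 with the common floor and 0.67 after median centring. Osm and Lif, cytokines that also signal through gp130, were at 96.4 ± 31.4 and 111 ± 43.9 in dust, and at 41.2 ± 24.4 and 45.6 ± 14.97 in saline (log2 fold changes 1.31 and 1.26, limma adjusted p = 6.33e-04 and 6.82e-04). At the upper bound of floored values they were 0.78 and 0.88 and still called. Stat3, the transcription factor of the arm, rose by 0.31 (−0.21 after median centring, and not called there). After median centring 4 of the 7 were higher and 1 lower, and at the upper bound of floored values 5 were higher, Il6 no longer among them.

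Of 3 tested Toll and interleukin 1 receptor adaptor genes, Cd14, the lipopolysaccharide co-receptor, rose by 2.15 (1449 ± 813 in dust, 288 ± 111 in saline; limma adjusted p = 1.24e-04) and Myd88, the shared adaptor, by 0.84 (0.32 after median centring, adjusted p = 0.0949). Traf6 was at −0.09 (adjusted p = 0.388; −0.60 after median centring, called lower). Of 21 tested NF-kappa-B target cytokines and effectors 15 were called higher and 0 lower (median 1.18; after median centring 11 higher and 2 lower). Cxcl3, a neutrophil chemokine, changed most of the 21, by 4.11 on the log2 scale, and Ccl3, a macrophage chemokine, by 3.14. Ccl20 and Cxcl5, chemokines that epithelium makes, were at 1.83 and 1.94, and at 1.005 and 1.298 at the upper bound of floored values.

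**Figure D4:**
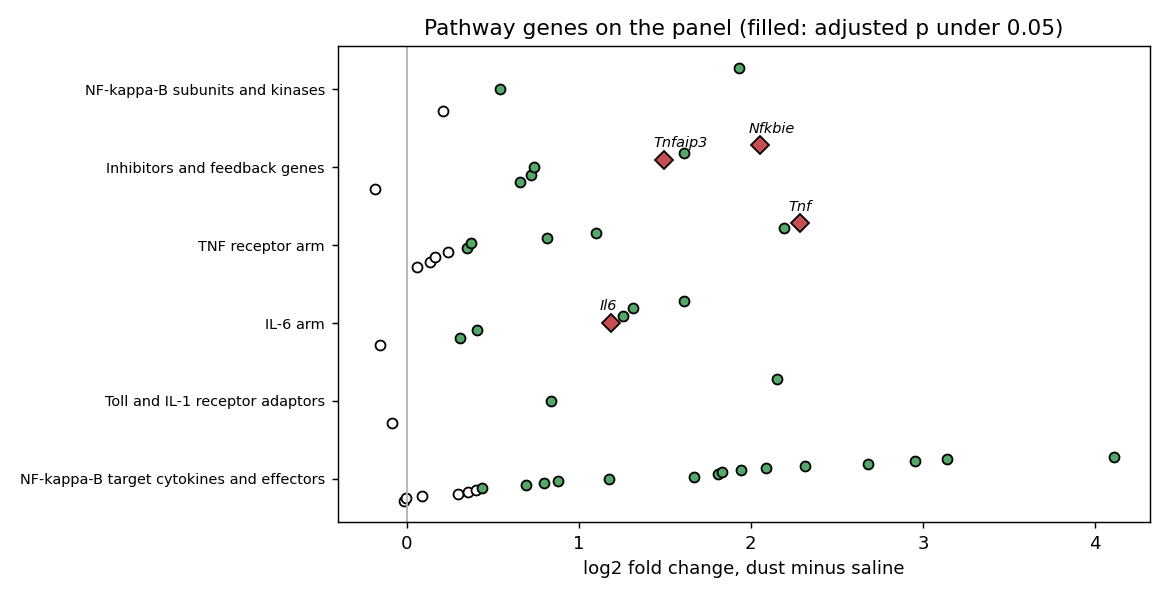
Log2 fold change, dust minus saline, of the tested genes in 6 pathway lists, 1 point per gene, with the 4 genes of interest as red diamonds; filled points passed an adjusted p of 0.05. No filled point lies left of 0, the target cytokines reach 4.11, and Tnf, Nfkbie and Tnfaip3 lie toward the right of their lists.

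The genes most like each member were sought among those above the floor in every lung, by Pearson's r of log2 values, as a description. The lungs share their day, cartridge and scaling, which enter every such r. Over all 23 lungs the difference between dust and saline enters too, so those values do not measure likeness within an exposure. Over the 13 dust lungs Tnf was most like Csf1, Hif1a and Tnfaip8 (r = 0.97, 0.96 and 0.96), and Tnfaip3 most like Cebpb, Nfkbia and Malt1 (r = 0.98, 0.96 and 0.96). Nfkbie was most like Ptafr, Il1rn and Vasp (r = 0.96, 0.96 and 0.95), and Il6, with lower likeness throughout, most like Plaur, Maff and Ccl17 (r = 0.82, 0.78 and 0.76). Over all 23 lungs the nearest were Cd274, Marcksl1 and Csf1 for Tnf (r = 0.94 each), Plaur, Ccl17 and Ccl2 for Il6 (r = 0.85, 0.82 and 0.82), Cebpb, Malt1 and Il4ra for Tnfaip3 (r = 0.98, 0.96 and 0.95) and Birc3, Ccl9 and Cxcl16 for Nfkbie (r = 0.91, 0.90 and 0.90).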

How the data were processed

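The deposited table holds a signal: probe counts that the authors multiplied by a scale factor per lung (0.682 to 4.21, recovered from the spacing of the values), with 20 in place of counts under 20 and of scaled values under 20. The sources used here name neither the software nor the genes behind the factor, and since counts under the floor are hidden, no count model was fitted. Counting error alone is 22.4% at 20 counts. Lungs were grouped by the extract code, which disagreed with other labels in 4 of 23 lungs.

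The test scale was log2(value + 1), fitted by limma 3.58.1 (R 4.3.3) in a model of 8 group means over all 23 lungs, with terms for day 2 in dust and in saline lungs for the day comparisons. Tests are two-sided, and p-values were adjusted by Benjamini-Hochberg over 711 genes. Correlations used 100000 permutations in Python 3.11.15 with scipy 1.17.1, all permutations where 8 or fewer lungs entered, and all swaps within groups for deviations. The model was tested on simulated data. Alternatives covered scaling, floor, filter, prior, day, cartridge, replicate block, labels and leaving out lungs. The floor bounds, the titles' groups and the lungs with a saturation message were added after seeing the data.

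The members, lists and markers were chosen with earlier results of these data known. The text names the 4 members, up to 4 other members of each list with the smallest p for dust minus saline, and the 3 genes most like each member. Of the marker lists, B cell markers gave 0 of 2 called, T cell 2 of 2 higher, mast cell 1 of 4 lower, epithelial 1 of 2 higher and fibroblast 2 of 4 higher. Of the 711 tested genes 43.3% were called higher, and the number called lower is given above. The epithelial and fibroblast counts lie near that share, and lists this short allow no reading of a cell type.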

Additional observations from a re-analysis of the deposited data

Results flagged for a closer look

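In groups of 4 to 10 lungs, a lung whose gap to its neighbour was large for the group's range was marked. The rule was Dixon's test at the 95% level on normalized counts, not on their logarithms, over 39 overlapping groups of lungs. Chance marks about 1 in 20 where values are normally distributed. That was not tested for these counts, and some groups held ties at the floor, so the marks are descriptions. Tnf in Fat-1 female dust lung 2 of day 1, at 1694.82 normalized counts, was marked among Fat-1 dust lungs and among day 1 dust lungs, and Tnfaip3 in the same lung, at 1777.55, among day 1 dust lungs. Tnf at 273.8 and Tnfaip3 at 1097.18 in Fat-1 male dust lung 1 of day 2, the lung with a saturation message, were marked among day 2 dust lungs. Il6 at 122.42 in WT male dust lung 2 of day 1 was marked among WT dust lungs, and Nfkbie at 134.86 in Fat-1 female dust lung 1 of day 2 was the low value among Fat-1 dust lungs. Il6 at 40.64 in Fat-1 male saline lung 1 of day 2, and Nfkbie at 65.5 in Fat-1 female saline lung 1 of day 1, were marked because all other lungs of their groups were at the floor. The dust response of Nfkbie differed between the days by the test of the difference, at −2.455 on the log2 scale, and this was not called at the upper bound of floored values (−1.20).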

How the results depend on the processing

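Dust minus saline in Tnf, Tnfaip3 and Nfkbie kept its direction and call under every alternative tried over both genotypes except the fit of day 2 lungs alone, and Il6 lost its call there and under both treatments of the floor. No genotype or sex difference in any of the 4 genes was called under any alternative. Causes of the changes below were not tested, beyond the smaller number of lungs or genes that some alternatives leave. Counts near 20, and the floor in shallow lungs, limit what can be said of Il6 in all lungs and of Nfkbie and Tnf in saline lungs.

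With the common floor, calls were lost for dust minus saline (Il6 at 0.14), dust minus saline in WT (Tnf at 1.24), dust minus saline in Fat-1 (Tnf at 1.51 and Il6 at 0.19), dust minus saline on day 1 (Il6 at 0.18), day 2 minus day 1 in dust (Tnfaip3 at −0.97), day 2 minus day 1 in saline (Nfkbie at 0.12), the day difference in response (Nfkbie at −0.88) and the correlation (Il6 with Tnfaip3 at 0.28 and Il6 with Nfkbie at 0.33). The sign turned in turn for the genotype difference in response (Tnf at 0.27 and Nfkbie at 0.013), the sex difference in response (Tnf at −0.21) and day 2 minus day 1 in saline (Tnf at −0.020). With floored values at their upper bound, calls were lost for dust minus saline (Il6 at 0.52), dust minus saline in Fat-1 (Il6 at 0.83), dust minus saline on day 1 (Il6 at 0.28), day 2 minus day 1 in saline (Nfkbie at 0.44) and the day difference in response (Nfkbie at −1.20). Calls were gained there for day 2 minus day 1 in dust (Tnf at −1.42). Signs turned there for the genotype difference in response (Tnf at 0.11), day 2 minus day 1 in saline (Tnf at −0.18 and Il6 at −0.81) and the day difference in response (Il6 at 0.17). With the cartridge in place of the day, calls were lost for day 2 minus day 1 in dust (Tnfaip3 at −0.36 and Nfkbie at −0.15), day 2 minus day 1 in saline (Nfkbie at 1.46) and the day difference in response (Nfkbie at −1.62). Calls were gained there for dust minus saline on day 2 (Tnfaip3 at 1.18). After median centring, calls were lost for dust minus saline on day 2 (Nfkbie at 0.54), day 2 minus day 1 in dust (Tnfaip3 at −0.67 and Nfkbie at −0.47) and the correlation (Tnf with Nfkbie at 0.47 and Il6 with Tnfaip3 at 0.58). Signs turned there for the sex difference in response (Tnf at −0.0076) and dust minus saline (Map3k14 at −0.30, Traf2 at −0.14 and Stat3 at −0.21). In a fit of day 2 lungs alone, calls were lost for dust minus saline (Tnf at 1.13, Il6 at 0.53, Tnfaip3 at 0.86 and Nfkbie at 0.96), dust minus saline in WT (Tnf at 0.98, Tnfaip3 at 0.56 and Nfkbie at 0.74) and dust minus saline in Fat-1 (Tnf at 1.27, Il6 at 0.88, Tnfaip3 at 1.15 and Nfkbie at 1.19). It also turned the sign of the genotype difference in response (Tnf at 0.30 and Nfkbie at 0.44) and Fat-1 minus WT in saline (Tnfaip3 at −0.0093 and Nfkbie at −0.054). Within day 1 alone, calls were lost for the correlation (Tnf with Tnfaip3 at 0.82 and Tnf with Nfkbie at 0.090). Signs turned there for Fat-1 minus WT in dust (Tnf at −0.054 and Nfkbie at −0.31), the sex difference in response (Tnf at −1.48 and Tnfaip3 at −0.21) and the correlation (Tnf with Il6 at −0.43, Il6 with Tnfaip3 at −0.21, Il6 with Nfkbie at −0.43 and Tnfaip3 with Nfkbie at −0.18). With groups from the characteristics, calls were lost for dust minus saline in Fat-1 (Tnf at 1.83), day 2 minus day 1 in dust (Nfkbie at −0.78) and day 2 minus day 1 in saline (Nfkbie at 1.56). Calls were gained there for dust minus saline in WT (Il6 at 0.94). There the sign changed for Fat-1 minus WT in saline (Il6 at 0.072). With groups from the titles, calls were lost for dust minus saline in Fat-1 (Tnf at 1.83 and Nfkbie at 1.88), dust minus saline on day 2 (Nfkbie at 0.86) and day 2 minus day 1 in saline (Nfkbie at 1.55). Calls were gained there for day 2 minus day 1 in dust (Il6 at −0.96). It also turned the sign of Fat-1 minus WT in saline (Il6 at 0.025). Without the 4 lungs whose labels disagree, calls were lost for dust minus saline in WT (Tnfaip3 at 1.21), dust minus saline in Fat-1 (Tnf at 1.83, Il6 at 1.55, Tnfaip3 at 1.73 and Nfkbie at 1.88), dust minus saline on day 2 (Nfkbie at 0.88) and day 2 minus day 1 in dust (Tnfaip3 at −1.06 and Nfkbie at −0.82). Without the 2 lungs in doubt, calls were lost for day 2 minus day 1 in dust (Tnfaip3 at −0.83 and Nfkbie at −0.77). The sign turned in turn for Fat-1 minus WT in dust (Tnf at −0.28 and Nfkbie at −0.024) and Fat-1 minus WT in saline (Il6 at 0.071). Without the 2 lungs with a saturation message, calls were lost for dust minus saline in Fat-1 (Tnf at 1.86) and dust minus saline on day 2 (Nfkbie at 0.63). Calls were gained there for day 2 minus day 1 in dust (Tnf at −2.13 and Il6 at −1.07) and the day difference in response (Tnf at −2.65, Il6 at −1.37 and Tnfaip3 at −1.47). Signs turned there for Fat-1 minus WT in dust (Nfkbie at −0.017), Fat-1 minus WT in saline (Il6 at 0.0020) and the sex difference in response (Tnf at −0.12). Without all 4 of these lungs, calls were lost for dust minus saline in Fat-1 (Tnf at 1.29) and dust minus saline on day 2 (Nfkbie at 0.79). Calls were gained there for day 2 minus day 1 in dust (Tnf at −1.77 and Il6 at −1.15) and the day difference in response (Tnf at −1.94 and Tnfaip3 at −1.24). There the sign changed for the genotype difference in response (Tnfaip3 at −0.049), Fat-1 minus WT in dust (Tnf at −0.46 and Nfkbie at −0.068) and Fat-1 minus WT in saline (Il6 at 0.16). With no filter, calls were lost for day 2 minus day 1 in dust (Tnfaip3 at −0.97 and Nfkbie at −0.76). In deviations from genotype, sex and day means, calls were lost for the correlation (Tnf with Tnfaip3 at 0.84 and Tnfaip3 with Nfkbie at 0.20). It also turned the sign of the correlation (Tnf with Il6 at −0.61, Tnf with Nfkbie at −0.29, Il6 with Tnfaip3 at −0.69 and Il6 with Nfkbie at −0.080). With the day as a block, the sign turned for the sex difference in response (Tnf at −0.10). With a pseudocount of 20, the sign turned for the sex difference in response (Tnf at −0.022). With the replicate block, calls were lost for dust minus saline in Fat-1 (Tnf at 1.62). It also turned the sign of the sex difference in response (Tnf at −0.13). The number of genes called for the day difference in response was 6 as reported, and it was 0, 3, 15, 159 or 164 under the alternatives that moved it beyond 1.5 times; 159 and 164 came without the lungs with a saturation message. For dust minus saline, 379 genes were called, and 3 in a fit of day 2 lungs alone; in that fit 3 were called in Fat-1 and 1 in WT, against 271 and 251. In Fat-1 the count was 69 without the 4 lungs whose labels disagree, 75 with groups from the titles, 167 with those from the characteristics, 160 with the replicate block and 136 without all 4 lungs in doubt or with a saturation message; in WT it was 139 without the lungs whose labels disagree and 155 with groups from the titles. For day 2 minus day 1 in dust 49 were called, with 0 to 319 under the alternatives, in saline 1, with 0 to 84, and for dust on day 2 68, with 0 to 155. Leaving out each lung in turn changed a call or a sign for dust minus saline in WT (2.11 to 2.95 for Tnf and 1.11 to 1.39 for Tnfaip3), dust minus saline in Fat-1 (1.47 to 2.58 for Tnf), the genotype difference in response (−1.06 to 0.050 for Tnf and −0.89 to 0.21 for Nfkbie), Fat-1 minus WT in dust (−0.28 to 0.83 for Tnf and −0.11 to 0.19 for Nfkbie), Fat-1 minus WT in saline (−0.26 to 0.071 for Il6 and −0.18 to 0.92 for Nfkbie) and the sex difference in response (−0.49 to 0.62 for Tnf). It also did so for dust minus saline on day 2 (0.41 to 1.17 for Tnfaip3 and 0.58 to 1.00 for Nfkbie), day 2 minus day 1 in dust (−2.13 to −0.90 for Tnf, −1.07 to −0.59 for Il6, −1.38 to −0.62 for Tnfaip3 and −1.05 to −0.65 for Nfkbie), day 2 minus day 1 in saline (1.56 to 1.97 for Nfkbie), the day difference in response (−2.63 to −1.40 for Tnf, −1.43 to −0.95 for Il6 and −1.53 to −0.78 for Tnfaip3), the number of genes called for the day difference in response (2 to 182) and the correlations (0.61 to 0.92 for Tnf with Nfkbie, 0.57 to 0.80 for Il6 with Tnfaip3 and 0.57 to 0.78 for Il6 with Nfkbie).

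Deviations of lungs that shared a day and a replicate number had a median r of −0.026 over 65 pairs, against 0.011 over 165 other pairs. Single pairs ranged from −0.406 to 0.697, and the other pairs from −0.779 to 0.725. The numbers were read as names of lungs, though a median r cannot show that they pair none. With the replicate block, dust minus saline was 1.91 for Tnf, 0.98 for Il6, 1.24 for Tnfaip3 and 1.94 for Nfkbie, all called, and 277 genes were called against 379.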
